A study of Mus musculus with 2 samples.

Results

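The enteric neuron genes described here are 32 genes that neurons of the gut wall use, taken from a fixed list of names by matching the Ensembl ID of each gene, without its version, to GENCODE mouse symbols. All 32 were found among the 43346 Ensembl genes of the deposited tables, of which 21461 are nuclear protein-coding genes. The names were not chosen on a contrast. They cover transcription factors and RNA-binding proteins of the neuronal lineage, the neuronal cytoskeleton, the machinery of synaptic vesicles, nicotinic receptors, and the enzymes and transporters of acetylcholine, nitric oxide and catecholamines.

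The study profiled total RNA above 200 nucleotides from the whole stomach of newborn B6NCrl mice by RNA sequencing, from 10 ng of RNA per library. There were 2 libraries, 1 from each of 2 littermates of postnatal day 0, and each pup keeps its number from the labels. No treatment is listed and sex was not collected. With 1 group of 2 animals from 1 dam there was no contrast to test, so levels and the spread between the pups are described without p-values, and that spread holds nothing of other litters, ages or strains.

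Neurons of the stomach wall descend from vagal neural crest and sit in ganglia between the muscle layers. Excitatory motor neurons release acetylcholine, made by choline acetyltransferase and loaded into vesicles by the transporter VAChT, and inhibitory motor neurons use nitric oxide, made by neuronal nitric oxide synthase. Sympathetic axons that reach the wall release noradrenaline, while their cell bodies lie outside the organ. In RNA of a whole organ, fewer neurons and less RNA per neuron cannot be told apart.

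Of the 32 genes, 25 (78.1%) were detected, meaning a TPM (a level scaled for gene length and depth) of at least 1 in both pups. Over all protein-coding genes the share was 61.2%. Pup 2 had 28 genes at that level and pup 1 had 25. The median over the 32 genes was 4.09 TPM in pup 2 and 3.65 TPM in pup 1, or 3.87 ± 0.315 TPM (SD, n = 2). The median over all protein-coding genes was 3.63 TPM in pup 2 and 3.48 TPM in pup 1, and over detected ones 13.2 TPM in pup 2 and 12.8 TPM in pup 1. Thus the typical neuronal gene lay near the median coding gene and below the median detected one, with 22 of the 32 under 13.1 TPM, the median of mean levels over detected coding genes. Together they held 24020 of 49983574 expected counts in pup 2 (0.0481%) and 23432 of 51524479 in pup 1 (0.0455%). The 5 highest genes made up 55.7% of the summed TPM in pup 2 and 55.6% in pup 1.

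The label was checked against genes of other cells. Genes of the enteric lineage were detected: of 10 further factors and receptors of enteric neurons, 9 were detected, among them Isl1 at 15.4 TPM in pup 2 and 16.2 TPM in pup 1, and the zinc finger factor Gata3 at 7.62 TPM in pup 2 and 6.43 TPM in pup 1. None of 6 markers of brain neurons (Slc17a7, Slc17a6, Gad1, Gad2, Neurod6 and Tbr1) was detected, and they summed to 0.23 TPM in pup 2 and 0.17 TPM in pup 1. Endocrine cells of the epithelium, which share vesicle and monoamine genes with neurons, were strongly represented: 6 of 7 markers were detected, with a sum of 575 TPM in pup 2 and 565 TPM in pup 1, led by the hormone gene Ghrl at 423 TPM in pup 2 and 389 TPM in pup 1. None of the endocrine markers was at 0, and the part of endocrine cells in the level of any neuronal gene was not tested.

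**Figure D1:**
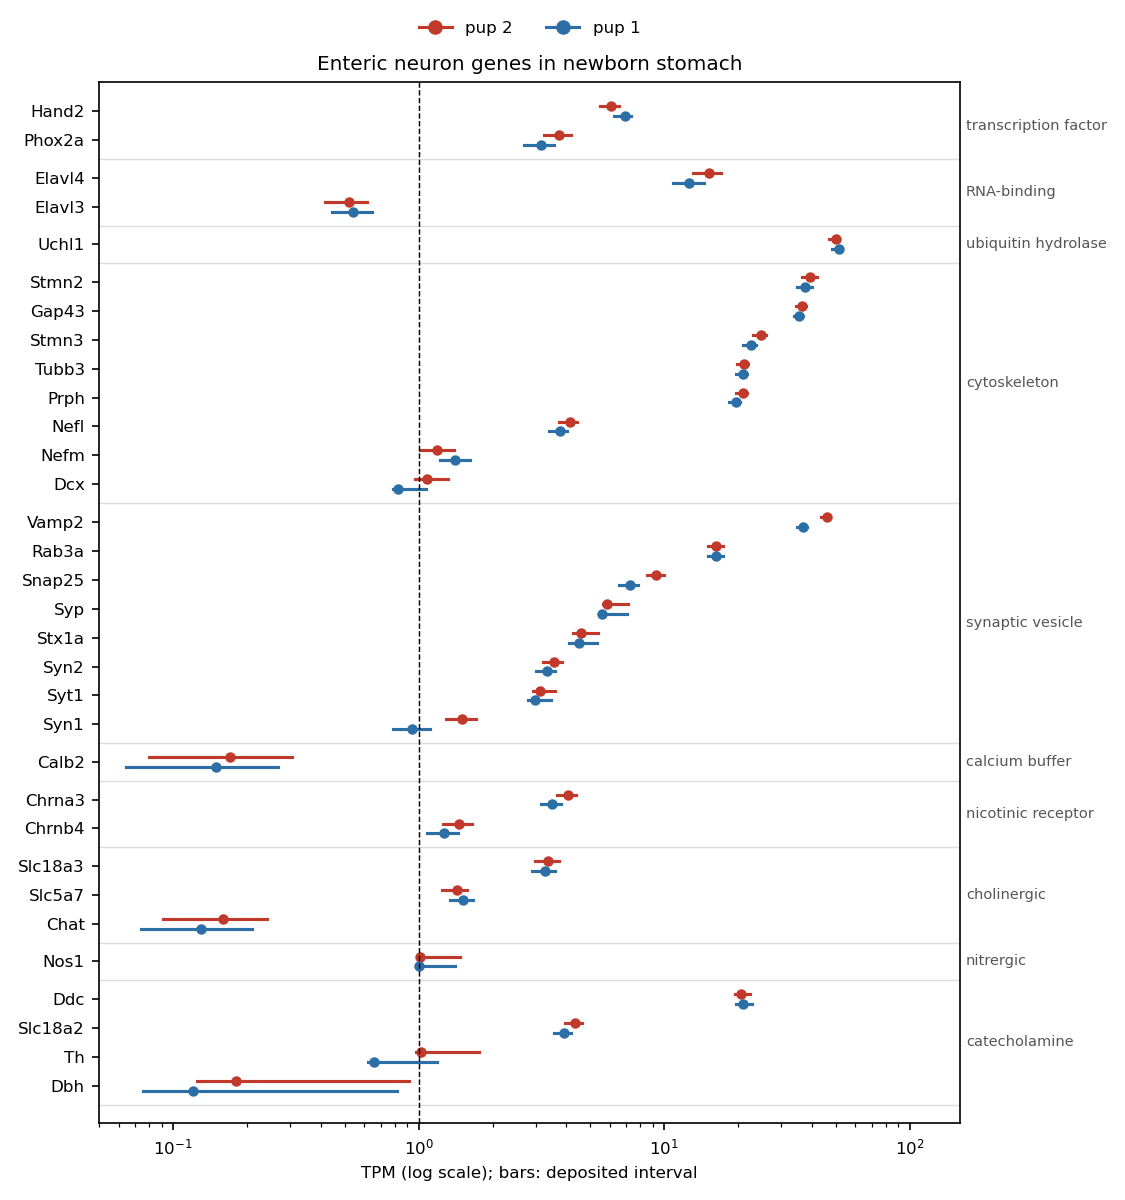
TPM on a log axis of the 32 enteric neuron genes, grouped by role, in pup 2 (red, upper point) and pup 1 (blue, lower point), with bars for the interval the authors deposited for each value and a dashed line at the detection limit of 1 TPM. Levels run from about 50 TPM for Uchl1 to under 0.2 TPM for Calb2, Chat and Dbh, and the bars of the pups are apart for Vamp2, Snap25 and Syn1 among the 28 genes with a mean of at least 100 counts.

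Both transcription factors were detected. Hand2, a basic helix-loop-helix factor needed for enteric neuron differentiation and also used in mesenchyme, was at 6.10 TPM in pup 2 and 6.90 TPM in pup 1. Phox2a, a homeobox factor of autonomic neurons, was at 3.73 TPM in pup 2 and 3.15 TPM in pup 1. The deposited interval of each gene overlapped between the pups. Exons of both genes overlap exons of a gene on the opposite strand, and no source used here says whether counting used strand, so reads of the partners may not have been told apart. The partner of Hand2 is the long noncoding RNA Hand2os1, at 31.0 TPM in pup 2 and 31.2 TPM in pup 1, and that of Phox2a is the phosphatase gene Inppl1, at 6.64 TPM in pup 2 and 5.83 TPM in pup 1.

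The RNA-binding proteins of the ELAV family known as HuC and HuD differed widely in level. Elavl4 (HuD) was at 15.2 TPM in pup 2 and 12.6 TPM in pup 1. Elavl3 (HuC) was not detected, at 0.52 TPM in pup 2 and 0.54 TPM in pup 1. Per unit of length, counts of Elavl4 exceeded those of Elavl3 by a ratio of 29.5 in pup 2 (exact 95% binomial interval 24.0 to 36.6) and 23.2 in pup 1 (19.1 to 28.5). Such intervals cover counting error only, and not how reads were split between transcripts. In coding transcripts alone Elavl4 was at 7.27 TPM in pup 2 and 7.61 TPM in pup 1, and Elavl3 was unchanged. On those values the ratio would be lower than these intervals. The share that follows also counts all transcripts of Elavl4. Elavl1, the broadly expressed family member, was at 23.3 TPM in pup 2 and 24.8 TPM in pup 1, so Elavl4 made up 39.5% of the summed TPM of Elavl4 and Elavl1 in pup 2 and 33.8% in pup 1.

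Cytoskeletal and axonal genes carried the largest summed level of any role, 149 TPM in pup 2 and 142 TPM in pup 1 over 8 genes, of which 7 were detected. The tubulin-destabilising stathmin Stmn2 was at 39.3 TPM in pup 2 and 37.5 TPM in pup 1, and its relative Stmn3 at 24.8 TPM in pup 2 and 22.6 TPM in pup 1. Gap43, a growth cone protein, was at 36.6 TPM in pup 2 and 35.6 TPM in pup 1. These growth genes were among the 5 highest of all 32 and their intervals overlapped between the pups. Tubb3, the neuronal class III β-tubulin, was at 21.2 TPM in pup 2 and 20.9 TPM in pup 1. Prph encodes peripherin, the intermediate filament of peripheral neurons, and was at 21 TPM in pup 2 and 19.6 TPM in pup 1. Peripherin thus stood well above the neurofilament subunits: Nefl was at 4.13 TPM in pup 2 and 3.78 TPM in pup 1, and Nefm at 1.19 TPM in pup 2 and 1.41 TPM in pup 1. Nefh, the heavy subunit outside the list, was at 0.21 TPM in pup 2 and 0.22 TPM in pup 1. Nefl exceeded Nefm per unit of length by a ratio of 3.47 in pup 2 (2.90 to 4.18) and 2.69 in pup 1 (2.27 to 3.20). Exons of this pair overlap on opposite strands. Dcx, a microtubule-binding protein of young neurons, crossed the detection limit between the pups, with 1.08 TPM in pup 2 and 0.82 TPM in pup 1.

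Of 13 other neuronal cytoskeleton genes, 12 were detected. The highest were the β-tubulin Tubb2a at 161 TPM in pup 2 and 169 TPM in pup 1, and Dpysl3 at 36.0 TPM in pup 2 and 38.1 TPM in pup 1. Map1b, a microtubule-associated protein, was at 15.8 TPM in pup 2 and 18.0 TPM in pup 1. In this set 5 of 13 genes were higher in pup 2. Broadly expressed relatives of these genes were at higher levels. Tubb3 made up 8.97% of the summed TPM of Tubb3 and Tubb5 in pup 2 and 7.62% in pup 1. Stmn2 made up 11.3% of that of Stmn2 and Stmn1 in pup 2 and 10.3% in pup 1.

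Uchl1, the ubiquitin hydrolase known as PGP9.5 and a standard stain for gut nerves, was the highest gene over all transcripts. It was at 49.96 TPM in pup 2 and 51.5 TPM in pup 1. Coding transcripts alone gave 15.3 TPM in pup 2 and 17.7 TPM in pup 1, below those of Vamp2, Stmn2, Gap43 and Stmn3. Uchl3, which other cells use, was at 149 TPM in pup 2 and 151 TPM in pup 1. Calb2, the calcium buffer calretinin, which marks a subset of enteric neurons, had 9 counts (0.17 TPM) in pup 2 and 8 counts (0.15 TPM) in pup 1. Its level was among the 3 lowest of the 32 genes.

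Synaptic vesicle genes summed to 90.1 TPM in pup 2 and 77.6 TPM in pup 1, with most of the difference in Vamp2. Each of the 8 was higher in TPM in pup 2, though Rab3a hardly so (16.29 against 16.25 TPM) and with fewer expected counts (819 against 861). Of coding genes with a mean TPM of at least 1, 58.4% were higher in pup 2. Vamp2, the SNARE protein of the vesicle membrane, was at 45.9 TPM in pup 2 and 36.7 TPM in pup 1. Its intervals, 43.4 to 47.6 in pup 2 and 34.7 to 38.3 in pup 1, did not overlap. Snap25, the SNARE protein of the target membrane, was at 9.30 TPM in pup 2 (8.50 to 9.95) and 7.24 TPM in pup 1 (6.54 to 7.83), again without overlap. Its partner Stx1a was at 4.57 TPM in pup 2 and 4.51 TPM in pup 1. Rab3a, a small GTPase of the vesicle surface, was at 16.3 TPM in both pups. The intervals of Stx1a and Rab3a overlapped between the pups. Rab3a shares exon sequence on the opposite strand with Mpv17l2, a gene at 64.8 TPM in pup 2 and 62.2 TPM in pup 1. Synaptophysin (Syp) was at 5.87 TPM in pup 2 and 5.61 TPM in pup 1, and the calcium sensor Syt1 at 3.12 TPM in pup 2 and 2.99 TPM in pup 1. The synapsins, which tether vesicles to actin, were at 3.56 TPM (Syn2) and 1.5 TPM (Syn1) in pup 2, and at 3.32 TPM (Syn2) and 0.94 TPM (Syn1) in pup 1. Syn1 therefore crossed the detection limit, and its intervals were apart (1.29 to 1.72 in pup 2, 0.786 to 1.12 in pup 1).

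Of 21 other synaptic genes, 17 were detected and 17 were higher in pup 2, beside the same 58.4% of coding genes. That share covers a mean TPM of at least 1, which not all 21 reach. Napa, a cofactor of SNARE disassembly in all cells, was at 125.1 TPM in pup 2 and 109 TPM in pup 1. The vesicle protein gene Syngr1 was at 46.0 TPM in both pups. Rab3d, the relative of Rab3a in exocrine cells, was at 116 TPM in pup 2 and 109 TPM in pup 1, so Rab3a made up 12.3% of their sum in pup 2 and 12.9% in pup 1. Broadly used SNAREs were at higher levels than their own relatives among the 32 genes, though Vamp2 was above Snap23 (19.4 TPM in both pups). Vamp2 made up 9.56% of the summed TPM of Vamp2, Vamp3 and Vamp8 in pup 2 and 8.30% in pup 1, and Snap25 made up 32.4% of that of Snap25 and Snap23 in pup 2 and 27.2% in pup 1.

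Snap25 has a pair of alternative copies of its exon 5, and transcripts carry 1 or the other. They encode the a form (upstream copy), which mouse brain uses before and around birth, and the b form (downstream copy), which takes over in the adult brain. The copies are shown because the transcript split below turns on them. Both are 118 bases long on the + strand of GRCm38, the upstream one at chr2:136769743-136769860 and the downstream one at chr2:136770057-136770174. They differ at 31 bases (73.7% identity), and capitals mark the bases that differ.
Snap25 exon 5, upstream copy: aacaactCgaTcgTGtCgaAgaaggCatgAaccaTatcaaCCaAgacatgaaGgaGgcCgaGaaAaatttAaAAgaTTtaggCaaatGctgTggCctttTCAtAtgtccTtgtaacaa
Snap25 exon 5, downstream copy: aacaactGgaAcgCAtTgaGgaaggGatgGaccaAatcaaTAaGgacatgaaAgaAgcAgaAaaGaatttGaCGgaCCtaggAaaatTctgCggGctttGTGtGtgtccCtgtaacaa
The transcript with the downstream copy (Snap25-201) held 85.9% of the TPM of Snap25 in pup 2 and 82.1% in pup 1. The transcript with the upstream copy (Snap25-202) held 13.2% in pup 2 and 16.8% in pup 1. The split does not rest on exon 5 alone, because the annotated Snap25-202 is shorter: 1220 bases lie only in Snap25-201, against 118 only in Snap25-202. How far reads from the rest of those 1220 bases set the split was not tested.

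Both subunits of the ganglionic nicotinic receptor were detected. Chrna3 was at 4.05 TPM in pup 2 and 3.51 TPM in pup 1, and Chrnb4, its neighbour in the same gene cluster, at 1.46 TPM in pup 2 and 1.27 TPM in pup 1. The ratio of Chrna3 to Chrnb4 per unit of length was 2.77 in pup 2 (2.34 to 3.28) and 2.76 in pup 1 (2.32 to 3.31). Of the other nicotinic subunits, Chrna5 of the same cluster was at 0.71 TPM in pup 2 and 0.79 TPM in pup 1, and Chrnb2 at 0.42 TPM in pup 2 and 0.36 TPM in pup 1. Chrnb1, the subunit of the muscle receptor, was higher than Chrnb4, at 3.66 TPM in pup 2 and 4.29 TPM in pup 1.

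Cholinergic genes were uneven. The vesicular transporter Slc18a3 (VAChT) was at 3.38 TPM in pup 2 (311 counts) and 3.27 TPM in pup 1 (313 counts). The choline transporter Slc5a7, which feeds the synthesis, was at 1.43 TPM in pup 2 and 1.52 TPM in pup 1. Chat, the enzyme itself, was not detected, with 17 counts or 0.16 TPM in pup 2 and 15 counts or 0.13 TPM in pup 1. Per unit of length, Slc18a3 exceeded Chat by a ratio of 21.4 in pup 2 (13.2 to 37.3) and 24.4 in pup 1 (14.6 to 44.2). The genes share a locus: on GRCm38 Slc18a3 lies at chr14:32462438-32464850 inside the span of Chat, chr14:32408203-32465989, on the same strand and with no shared exon. The transporter and the enzyme that mark the same neurons thus stood far apart in these libraries. The files hold 1 transcript of Chat, and transcripts that start or splice otherwise were not analysed here.

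Of 10 other cholinergic genes, 5 were detected. The choline transporter-like gene Slc44a1 was at 29.1 TPM in pup 2 and 27.3 TPM in pup 1, and the muscarinic receptor of smooth muscle Chrm2 at 13.6 TPM in pup 2 and 11.3 TPM in pup 1. Acetylcholinesterase (Ache) was at 10.5 TPM in pup 2 and 8.56 TPM in pup 1. RNA of the degrading enzyme was thus far above that of the synthetic one in the whole organ. Which cells the Ache RNA came from was not tested.

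Nos1, the neuronal synthase of nitric oxide, was at the detection limit, with 1.01 TPM in pup 2 (398 counts) and 1.00 TPM in pup 1 (416 counts). Its transcript is long, so this level rests on more counts than that of Slc18a3. The deposited interval began close to the value itself, at 1.01 to 1.47 in pup 2 and 0.991 to 1.40 in pup 1, and the posterior mean lay above it, at 1.22 TPM in pup 2 and 1.18 TPM in pup 1. Nos1 made up 25.8% of the summed TPM of Nos1, Nos3 and Nos2 in pup 2 and 25.4% in pup 1, with the endothelial Nos3 at 2.68 TPM in pup 2 and 2.70 TPM in pup 1. Of 9 other nitric oxide genes, 8 were detected, among them the receptor cyclase subunits Gucy1a1 at 14.0 TPM in pup 2 and 14.9 TPM in pup 1 and Gucy1b1 at 15.9 TPM in pup 2 and 17.01 TPM in pup 1. The arginine-recycling enzyme Ass1 was higher, at 30.3 TPM in pup 2 and 29.5 TPM in pup 1.

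Among catecholamine genes the steps of the pathway differed widely. In TPM the factor between Ddc and Dbh was more than 100, but with posterior means it was below 100 in both pups. Th, tyrosine hydroxylase and the rate-limiting enzyme, had 70 counts (1.02 TPM) in pup 2 and 47 counts (0.66 TPM) in pup 1. Dbh, which turns dopamine into noradrenaline, had 18 counts (0.18 TPM) in pup 2 and 12 (0.12 TPM) in pup 1. Its deposited interval was wide, at 0.125 to 0.911 in pup 2 and 0.0752 to 0.815 in pup 1. The posterior mean of Dbh was 0.43 TPM in pup 2 and 0.35 TPM in pup 1. Ddc, the aromatic amino acid decarboxylase that also makes serotonin, was at 20.7 TPM in pup 2 and 20.9 TPM in pup 1. The vesicular monoamine transporter Slc18a2 (VMAT2) was at 4.34 TPM in pup 2 and 3.91 TPM in pup 1. Per unit of length, Ddc exceeded Th by a ratio of 20.3 in pup 2 (15.96 to 26.2) and 31.8 in pup 1 (23.8 to 43.5). Slc18a2 exceeded Th by a ratio of 4.26 in pup 2 (3.33 to 5.54) and 5.95 in pup 1 (4.42 to 8.19). Ddc and Slc18a2 thus ran well ahead of the enzymes specific to catecholamines, while the ratio of Th to Dbh, 5.51 in pup 2 (3.25 to 9.84) and 5.55 in pup 1 (2.90 to 11.5), was wide in error. Posterior means were 1.36 TPM (Th) and 4.29 TPM (Slc18a2) in pup 2, and 0.89 and 3.86 TPM in pup 1. With posterior means the ratios of Slc18a2 to Th and of Th to Dbh would lie below these intervals in both pups. That of Ddc to Th would do so in pup 2.

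Other genes of monoamines were set beside them. Slc6a2, the noradrenaline transporter of sympathetic neurons, was at 0.12 TPM in pup 2 and 0.06 TPM in pup 1, and 1 of 4 markers of sympathetic and chromaffin cells was detected, Npy, at 2.86 TPM in pup 2 and 3.88 TPM in pup 1. That list summed to 4.01 TPM in pup 2 and 4.88 TPM in pup 1. Of that list Slc6a2 and Pnmt, which define noradrenaline and adrenaline cells, were near 0. Its remaining member, Slc18a1, lay close to the detection limit, at 1.01 TPM in pup 2 and 0.92 TPM in pup 1. Tph1 and Tph2, which start serotonin synthesis, were at 0.42 and 0.01 TPM in pup 2 and at 0.64 and 0.01 TPM in pup 1. Hdc, the histidine decarboxylase of histamine-storing endocrine and mast cells, which also load their amine with VMAT2, was at 2.91 TPM in pup 2 and 2.51 TPM in pup 1. Of 11 further catecholamine and serotonin genes 4 were detected. All 5 genes that make or recycle tetrahydrobiopterin, the cofactor of both Th and Nos1, were detected. They lay between 10.3 TPM (Gch1) and 80.0 TPM (Pcbd1) in pup 2, and between 10.6 TPM (Gch1) and 78.7 TPM (Pcbd1) in pup 1. How much of Ddc or Slc18a2 came from endocrine or mast cells was not tested.

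Set side by side, the classes summed to 4.97 TPM (cholinergic, 3 genes), 1.01 TPM (nitrergic, 1 gene) and 26.2 TPM (catecholamine, 4 genes) in pup 2, and to 4.92, 1.00 and 25.6 TPM in pup 1. Means were 4.95 ± 0.0354, 1.01 ± 0.00707 and 25.9 ± 0.445 TPM (SD, n = 2). The differences between classes were far larger than the spread between the pups. Ddc alone was 78.9% of the catecholamine sum in pup 2 and 81.7% in pup 1. Without it the class summed to 5.54 TPM in pup 2 and 4.69 TPM in pup 1, which is above the cholinergic sum in pup 2 and below it in pup 1. Th and Dbh together gave 1.2 TPM in pup 2 and 0.78 TPM in pup 1, so their order against Nos1 also changed with the pup. With posterior means it did not change, and Th and Dbh together were above Nos1 in both pups. Those means were 1.36 (Th), 0.43 (Dbh) and 1.22 (Nos1) in pup 2, and 0.89, 0.35 and 1.18 in pup 1. Gene against gene, Slc18a3 exceeded Nos1 per unit of length by a ratio of 3.35 in pup 2 (2.88 to 3.90) and 3.26 in pup 1 (2.81 to 3.78). The posterior mean of Slc18a3 was 3.34 TPM in pup 2 and 3.24 TPM in pup 1. With posterior means of both genes that ratio would lie below these intervals in both pups. The sums count unequal numbers of genes and say nothing of how many neurons of each kind there were.

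**Figure D2:**
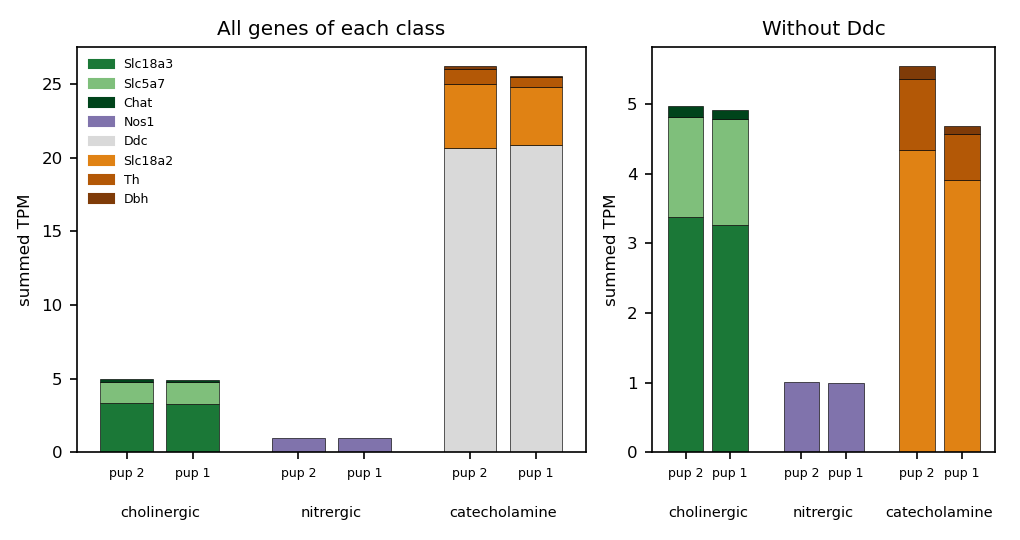
Summed TPM (linear axis from 0) of the cholinergic, nitrergic and catecholamine genes, stacked by gene, with pup 2 left of pup 1; the left panel has all 8 genes and the right panel leaves out Ddc. Ddc makes up most of the catecholamine bar, and without it that bar is 5.54 TPM in pup 2 and 4.69 TPM in pup 1, beside cholinergic bars of 4.97 TPM in pup 2 and 4.92 TPM in pup 1.

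Ordered by mean TPM, the 32 genes ran from Uchl1, Vamp2, Stmn2, Gap43 and Stmn3 at the top to Calb2, Dbh and Chat at the bottom. Of the 31 pairs of neighbours in this order, 6 had intervals apart in both pups: Gap43 above Stmn3, Prph above Rab3a, Elavl4 above Snap25, Syp above Stx1a, Syt1 above Slc5a7, and Elavl3 above Calb2. The other 25 neighbours did not differ beyond their intervals in both pups. The order therefore fixes tiers rather than single ranks. It also rests on all transcripts of a gene. In coding transcripts alone Uchl1 would not lead, and Elavl4 would lie below Snap25 in pup 2 (7.27 against 9.21 TPM).

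Littermates differed little. A gene was called different with a TPM ratio of 2-fold or more, deposited intervals that were apart, and a mean of 100 or more expected counts. Of the 28 enteric neuron genes with that count, 0 were called, and the rate over all 13951 genes with that count was 0.423%. Ratios of pup 2 to pup 1 among the 28 ran from 0.844 (Nefm) to 1.60 (Syn1), and 4 genes (Calb2, Chat, Th and Dbh) had too few counts to be asked. By the intervals alone, 3 of 28 (10.7%) were higher in pup 2, against 12.9% of all genes, and 0 were lower, against 8.33%. At a limit of 1.2-fold, chosen after the values were seen, the 3 higher genes Vamp2, Snap25 and Syn1 still passed (10.7%), against 5.13% of all genes. Vamp2 had a ratio of 1.25 and Snap25 of 1.28.

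Counting direction of TPM alone, 26 of the 32 genes (81.2%) were higher in pup 2 and 6 were lower. Of coding genes with a mean TPM of at least 1, 58.4% were higher in pup 2, a limit that not all 32 genes reach. Small differences depend on the scaling. Tubb3 and Nos1 were higher in TPM in pup 2 but had fewer expected counts there (1491 against 1532 and 398 against 416), in the library with fewer counts in total. The count of directions was not repeated with other scalings. The 6 lower genes were Hand2, Elavl3, Nefm, Uchl1, Slc5a7 and Ddc. The median of log2((TPM of pup 2 + 1)/(TPM of pup 1 + 1)), a scale that understates differences of low genes, was 0.06 over the 26 genes with a mean TPM of at least 1 and 0.03 over 13326 coding genes. The spread between the pups over all genes was a biological coefficient of variation of 0.0941 in edgeR, over 17904 genes. Of 8 glial genes 6 were detected and 5 were higher in pup 2, with a sum of 60.7 TPM in pup 2 and 54.4 TPM in pup 1. Smooth muscle and mesenchyme markers summed to 3259 TPM in pup 2 and 3701 TPM in pup 1, with 3 of 4 detected and 2 of 4 higher in pup 2. Acta2 made up most of that sum, at 2921 TPM in pup 2 and 3358 TPM in pup 1, while the mesenchymal factor Barx1 was at 172 TPM in pup 2 and 141 TPM in pup 1. Mesothelial markers summed to 111 TPM in pup 2 and 122 TPM in pup 1, with 4 of 4 detected and 2 of 4 higher in pup 2. Of these lists only Hand1, a mesenchyme gene at 0.14 TPM in pup 2 and 0.10 TPM in pup 1, and the glial genes Foxd3 and Gfap were not detected. The part of tissue make-up in the direction of the neuronal genes was not tested.

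**Figure D3:**
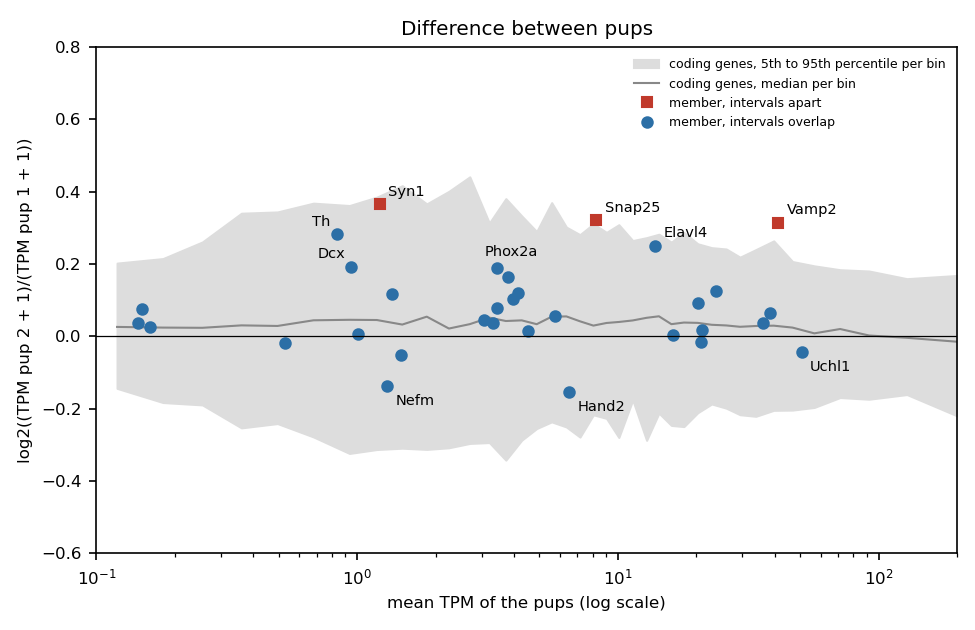
Log2 ratio of pup 2 to pup 1 (TPM plus 1) against mean TPM on a log axis, for the enteric neuron genes, with the median (line) and the 5th to 95th percentile (band) of protein-coding genes in bins of equal size. Red squares are genes whose intervals were apart (Vamp2, Snap25 and Syn1); most points lie above 0 and inside the band.

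The largest ratio, that of Syn1, comes with a caveat of position: exons of Syn1 overlap those of Araf on the opposite strand, and Timp1 lies within its span. Araf was at 53.1 TPM in pup 2 and 47.7 TPM in pup 1, and Timp1 at 10.0 TPM in pup 2 and 16.2 TPM in pup 1. In all, 12 of the 32 genes have exons that overlap an exon of another gene. Expected counts were whole numbers (within 0.005) in both pups for 30 of 32 genes (93.8%), against 72.3% of detected coding genes. The exceptions were Hand2 and Syp.

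Promoters are shown for Syn1 and Th, chosen after the values were seen. Their ratios of pup 2 to pup 1, 1.60 and 1.55, were the largest and the next largest. Only entries that hold the full cAMP response element TGACGTCA, the site of the factor CREB, were kept for printing. The window searched ran from 250 bases before to 50 bases after the RefSeq start. Presence of the element in the printed entries was thus fixed by the choice, and a link to the ratios was not tested. The first 250 bases of each entry are printed from RefSeq on GRCm38.p6, on the − strand, with that element in capitals, 45 bases before the start of Th (chr7:142899996-142900245) and 159 before that of Syn1 (chrX:20920919-20921168).
Th: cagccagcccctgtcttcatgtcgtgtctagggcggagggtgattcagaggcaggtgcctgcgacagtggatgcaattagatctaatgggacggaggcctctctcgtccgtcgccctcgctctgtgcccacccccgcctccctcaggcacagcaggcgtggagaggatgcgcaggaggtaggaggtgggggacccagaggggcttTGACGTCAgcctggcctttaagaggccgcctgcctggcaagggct
Syn1: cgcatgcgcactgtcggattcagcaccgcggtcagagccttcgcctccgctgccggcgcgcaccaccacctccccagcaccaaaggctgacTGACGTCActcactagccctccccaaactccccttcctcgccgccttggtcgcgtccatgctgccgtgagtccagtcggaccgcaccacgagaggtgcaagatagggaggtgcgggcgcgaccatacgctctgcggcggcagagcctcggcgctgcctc
Of the 25 genes with a promoter entry, 3 held TGACGTCA on either strand (Syn1, Th and Slc18a2, whose copy starts 4 bases before its start site), against 2.03% of 27025 gene promoters of the same length. The ratio of Th rests on 70 counts in pup 2 and 47 in pup 1, and its intervals overlapped, and Slc18a2 had a ratio of 1.11. Dbh, with the next ratio after Th, on 18 counts in pup 2 and 12 in pup 1, has a promoter entry that does not hold TGACGTCA. TCAGCACC, letters from the first part of the element bound by the neuronal repressor REST, was in 2 of the 25 (Syn1 and Tubb3), against 1.85% of promoters. TATAAA was in 5 of the 25, against 15.7%. TAATTA, a core of homeodomain sites, was in 3, against 6.12%, and GGACAG, letters from the other part of the REST element, in 6, against 24.7%. A match of letters is a description of the window and not a bound site.

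Of the 32 genes 13 had 1 annotated transcript, and 15 detected genes with more could be compared. The transcript with the largest share was the same in both pups for 14 of 15 (93.3%), against 91.7% of coding genes, a share near that background. The exception was Stx1a, where the coding transcript Stx1a-201 held 70.8% in pup 2 and 39.6% in pup 1. The nonsense-mediated decay transcript Stx1a-204 held 29.2% in pup 2 and 51.4% in pup 1. These transcripts differ by 83 bases found only in Stx1a-204 and 78 found only in Stx1a-201, and the gene had 375 counts in pup 2 and 359 in pup 1, so few reads bear on the split. Minor transcripts of other genes also differed in share: Rab3a-204 held 11.2% in pup 2 and 21.2% in pup 1, and Dcx-203 held 28.3% in pup 2 and 0% in pup 1.

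A main transcript that is not protein-coding in either pup was found in 2 of the 15 genes (13.3%), against 7.95% of coding genes. For Uchl1, the highest neuronal gene over all transcripts, the retained-intron entry Uchl1-202 held 68.3% of the TPM in pup 2 and 64.2% in pup 1. It has 52 bases that are not in the coding Uchl1-201, and 928 bases are shared. Coding transcripts of Uchl1 held 30.6% in pup 2 and 34.3% in pup 1, and Uchl1 was the 1 gene of 25 detected (4.00%) with under 50% in coding transcripts on average, against 7.44% of detected coding genes. For Elavl4 the entry Elavl4-211, a processed transcript, led at 34.2% in pup 2 and 27.1% in pup 1, with 47.8% in coding transcripts in pup 2 and 60.3% in pup 1. Over the 25 detected genes the median share in coding transcripts was 100%, against 99.1% over detected coding genes.

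Ddc has alternative first exons, which neuronal and non-neuronal tissues are known to use differently. The transcript that starts farther upstream, Ddc-210, held 72.1% in pup 2 and 63.7% in pup 1, and Ddc-202, with the start nearer to the coding exons, held 6.41% in pup 2 and 13.8% in pup 1. Nos1-206 held 97.9% of Nos1 in pup 2 and 100% in pup 1, so the shares of this low gene gave no second form of any size.

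**Figure D4:**
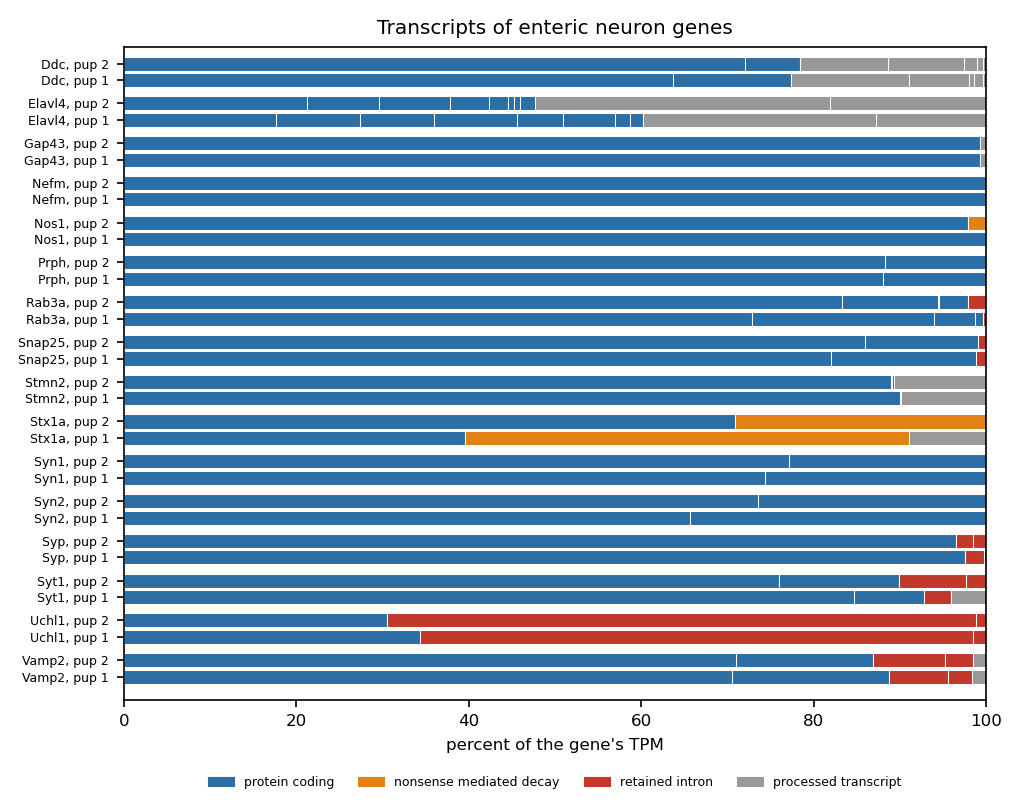
Percent of each gene's TPM in each annotated transcript, coloured by transcript type, for enteric neuron genes with 2 or more transcripts and a mean TPM of at least 1, pup 2 above pup 1. Coding transcripts fill most bars; Uchl1 (30.6% coding in pup 2, 34.3% in pup 1), Elavl4 and, in pup 1, Stx1a stand out.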

How the data were processed

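Whole-stomach total RNA of 2 littermates, 1 library each, was measured; per the labels they are separate animals. Per the labels, the values are on build mm10 with GENCODE M4; strandedness and the quantification program: not given in the sources used here. Column names match RSEM output. The expected counts the authors deposited are estimated reads per gene, unscaled. The TPM values the authors deposited are scaled for length and depth and come with a posterior mean and an interval whose level is not given. The FPKM values the authors deposited are scaled for length and for reads per library. The isoform share the authors deposited gives each transcript's percent of its gene's TPM. Tables held 69691 features, of which 43346 were Ensembl genes; 42462 matched GENCODE M21 (the same assembly, annotated later) for symbols, types and positions.

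The members and gene lists were chosen with earlier results of these data known. All 32 members were named; of each other list, up to 3 of the highest were named, plus relatives, overlapping genes and enzymes or transporters of the same transmitter. Some genes that this rule names are not reported here. Expected counts were rounded for edgeR 4.0.16 (R 4.3.3; TMM scaling, filterByExpr, common dispersion). A gene was detected at 1 TPM in both pups, and log2 ratios used a pseudocount of 1. Ratios of counts per effective length had exact binomial 95% intervals. A count of 0 allows up to 3 counts, or 0.0600 CPM in pup 2 and 0.0582 CPM in pup 1. PCR copies of a molecule are counted as separate reads, so intervals and floors cover counting error only. The call rule and the dispersion were tested on simulated data. Promoters came from RefSeq on GRCm38.p6 and exons from GENCODE M21 with the GRCm38 sequence. Alternatives tried were other detection limits, the posterior mean, FPKM, coding transcripts alone, other fold and count limits, other scalings, and each pup left out.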

Additional observations from a re-analysis of the deposited data

How the results depend on the processing

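The count of 25 detected genes was 13 at a limit of 5 TPM and 10 at 10 TPM; it was 29 at 0.5 TPM and 24 where the lower bound of the interval had to reach 1. The median of 3.87 TPM was 3.09 in FPKM. The cholinergic sum of 4.95 TPM was 4.90 with posterior means and 3.96 in FPKM. The nitrergic value of 1.01 TPM was 1.2 with posterior means, 0.805 in FPKM and 0.995 with coding transcripts alone. The catecholamine sum of 25.9 TPM was 26.7 with posterior means, 20.7 in FPKM, 21.3 with coding transcripts alone and 5.12 without Ddc. The order of the 3 sums, as means over the pups, was the same under these alternatives, but without Ddc the catecholamine sum was above the cholinergic one in pup 2 (5.54 against 4.97 TPM) and below it in pup 1 (4.69 against 4.92 TPM). The count of 0 genes differing between the pups was 1 at 1.5-fold, 3 by intervals alone and 3 at 1.2-fold, the last chosen after seeing the data, as were coding transcripts alone; with a mean count of at least 10, and with Poisson intervals after TMM scaling, it was 0. With each pup left out in turn, detected genes ranged from 25 to 28, the median from 3.64 to 4.09 TPM, and the sums from 4.92 to 4.97 TPM (cholinergic), 1.00 to 1.01 TPM (nitrergic) and 25.6 to 26.2 TPM (catecholamine). The median log2 ratio of 0.06 stayed positive, between 0.02 and 0.06, under 5 other pseudocounts, scalings and filters, while that of coding genes ranged from -0.02 to 0.03. The spread between the pups was 0.0941, or 0.0994 without a filter, and main transcripts were the same in 10 of 10 genes at a limit of 5 TPM. No paired analysis was possible because there is 1 group. Depth limits Calb2, Chat and Dbh, with 8 to 18 counts per pup, and 2 littermates limit every statement on spread.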
